A study of Macaca mulatta with 23 samples.

Results

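Methylated CpG-rich runs are stretches of DNA in which many CpG positions lie close together and most of them carry methylation. They were picked here from the levels themselves. Autosomal positions at most 200 bp apart were joined, runs of 20 to 49 positions with values in 20 or more animals were kept, an animal's level was the mean of its values in the run, and members had a mean over animals above 80%. Of 4844 autosomal runs of that size, 212 (4.38%) met the rule. They hold 6121 of the 428538 autosomal positions (1.43%). The remaining runs of that size divided into 3327 with a mean of 20% or less and 1305 in between. Because the level chose the members, their height is a description and was not tested.

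The study profiled genomic DNA of the central nucleus of the amygdala in 23 young rhesus monkeys (Macaca mulatta) by reduced representation bisulfite sequencing, with 1 library per monkey. It treated anxious temperament, a trait measured from the behaviour and hormones of young monkeys, as a continuous score with age as the covariate. The tissue came from the left hemisphere in 11 monkeys, aged 1.1 to 2.13 years with scores from -0.83 to 1.43, and from the right in 12, aged 1.1 to 1.64 years with scores from -1.48 to 0.89. The labels name no treatment, genotype or surgery, give 1 hemisphere per monkey, and describe whole tissue, so neurons and glia are averaged together. Monkeys are called here by hemisphere and a number, such as right 9.

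CpG methylation is placed on the cytosine of both strands and copied after replication by maintenance methyltransferases. Dense clusters of CpGs near gene starts are usually kept free of it, whereas CpGs in gene bodies, in repeats and in silenced germline promoters often carry it. Bisulfite treatment reads 5-methylcytosine and 5-hydroxymethylcytosine, which is plentiful in neurons, as the same signal. The reads were placed on the human build hg19, per the submitters' processing notes, and all coordinates and bands below are of that build. No annotation or sequence of that build was used here, so runs carry coordinates and bands but no gene names and no bases.

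The runs of this size fell mostly at the bottom of the scale. Per 10-point step from 0 to 100%, they numbered 3139, 188, 134, 113, 110, 178, 355, 415, 195 and 17. A low peak was thus followed by a broad shoulder that was highest between 70% and 80%. The members are the upper flank of that shoulder, with no gap at the threshold. Means ran from 80.19% to 94.23% with a median of 84.27%, and 58 members lay at 82% or less against 17 above 90%. Just inside the threshold were runs in 7p22.1 (80.19%), 20q13.33 (80.27%) and 7q22.1 (80.28%). Just outside were runs in 16p11.2 (79.99%), 11q13.2 (79.94%) and 22q13.31 (79.94%). With a threshold of 75% there would be 390 members, and with 90% only 17.

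**Figure D1:**
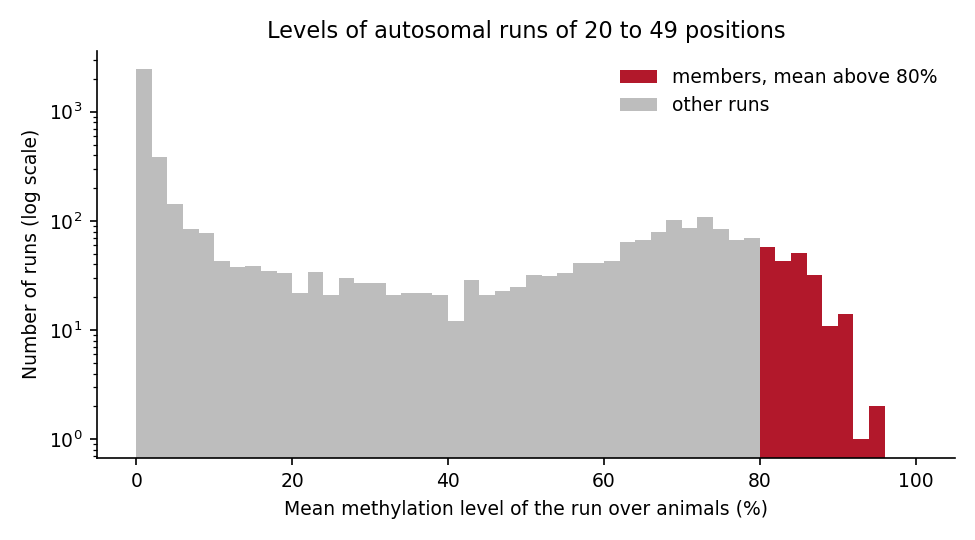
Histogram of the mean methylation level over animals (x axis, %) of the 4844 autosomal runs of 20 to 49 positions, with the number of runs on a log y axis. Members, in red, form the upper flank of a shoulder that is highest between 70% and 80%, and 3139 runs lie below 10%.

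The members were compact. Their spans ran from 89 to 675 bp with a median of 179.5 bp, and they held a median of 26.5 positions. The file lists many positions in pairs that lie 1 bp apart. With such pairs counted once, a member held 10 to 39 CpGs (median 15). That is a median of 8.145 CpGs per 100 bp, against 10.24 in runs at 20% or less and 7.353 in runs over 60% and up to 80%. The shortest member lies in 2p13.3 on chromosome 2 from 70122252 to 70122340, with 24 positions in 89 bp. Its level ran from 74.6% in right 9 through a median of 87.5% to 100% in right 1, which had values at 11 of the 24 positions. The longest lies in 17p11.2 on chromosome 17 from 18022182 to 18022856, with 35 positions in 675 bp and levels from 80.6% to 89.5% (median 86.1%). The 5 members with the most positions, at 48 or 49 each, lie in 13q33.3, 8p21.2, 7p12.1, 6p21.1 and 19p13.3.

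The highest member lies in 16q23.1 on chromosome 16 from 75512862 to 75513016. It packs 42 positions into 155 bp and averaged 94.23% ± 1.55 (SD, n = 21). The lowest animal, left 9, stood at 90.4%, the median at 94.4% and the highest, right 11, at 96%. None of its positions had a mean under 20%. The lowest member, in 7p22.1 on chromosome 7 from 4917376 to 4917756, was far wider. Levels there ran from 64.3% in right 5 through a median of 78.5% to 97.2% in left 4, a mean of 80.19% ± 7.80 (SD, n = 23). The 3 highest animals, left 4, left 3 and right 3, had values at only 4, 4 and 6 of its 22 positions. At 2 other positions of this run, 4917385 and 4917397, the level was 0 in all 17 animals with a value, and these 3 animals had none there. Right 5, the lowest, had values at all 22 positions, and with values centred on each position's mean the range was still 22.2 points.

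Members were not evenly spread over the chromosomes. Chromosome 19 held 42 of them, 19.8% of the members against 9.31% of the runs of that size. Its 9.31 members per 100 such runs compare with 3.1 on chromosome 1 (14 of 452). Small chromosomes 18 and 21 also had high rates, 12.2 and 10.8 per 100 runs, but from only 10 and 4 members. Chromosome 22 held 11 members of 133 runs. By band, 19p13.3 held 10 members of 97 runs, 19p13.11 held 8 of 57, 19p13.2 held 6 of 62, 19q13.2 held 6 of 46 and 18q23 held 4 of 14. Within 5 Mb of a chromosome end lay 42 members (19.8%), against 16.6% of all runs of that size. The share was 13.9% in runs at 20% or less and 21.5% in runs over 20% and up to 60%. In runs over 60% and up to 80% it was 23.9%, above that of the members. These shares are counts of runs that the assay happened to cover and were not tested.

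Single runs also differed in what lay beside them. Another run of any size lay within 2 kb of 71 members (33.5%). The share was 49.2% in runs at 20% or less and 32.1% in runs over 60% and up to 80%, close to the members. The neighbour's level had a median of 73.0% beside members and of 1.63% beside runs at 20% or less. Beside runs over 60% and up to 80% it was 61.6%. Only 7 members had a neighbour at 20% or less and 23 had one above 80%. In all, 4 pairs of members lay within 10 kb of each other. In 18q23 runs at 91.3% and 87.3% were separated by 550 bp, in 2p16.3 runs at 88.03% and 81.61% by 221 bp, in 16q12.1 runs at 81.9% and 83.5% by 421 bp, and in 19q13.42 runs at 83.6% and 87.5% by 1221 bp.

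Within the runs most positions were nearly fully methylated and a few were nearly empty. Of the 6121 positions, 5092 (83.2%) had a mean over 80% and 2774 (45.3%) of 95% or more. Another 583 (9.53%) lay from 20% to 80%, and 446 (7.29%) lay under 20%. The median position stood at 94.3%, so a run mean near 84% is mostly a mixture of high and very low positions. Only 9 members had no low position, 144 had 1 or 2, and 59 had 3 to 5. Without its low positions, each run averaged 81.3% to 97.9% (median 91.0%).

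Low positions were most frequent next to the ends of the runs. In 64.15% of members the position next to the first was under 20%, and in 63.68% the position next to the last. The outermost positions were low in 7.55% and 8.49% of members, and the third positions in 3.77% and 2.36%. Among all positions other than the outer 2 at each end, 141 of 5273 (2.67%) were low. Among the members, 163 began with a pair of positions 1 bp apart. In 112 of these pairs the second position was under 20% while the first was over 80%, and the reverse occurred in 0. At the other end 154 members closed with such a pair. In 115 of them the first position was under 20% while the last was over 80%, and the reverse occurred in 0. In all, 263 of the 446 low positions (59.0%) were the inner position of a pair at a run's end.

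**Figure D2:**
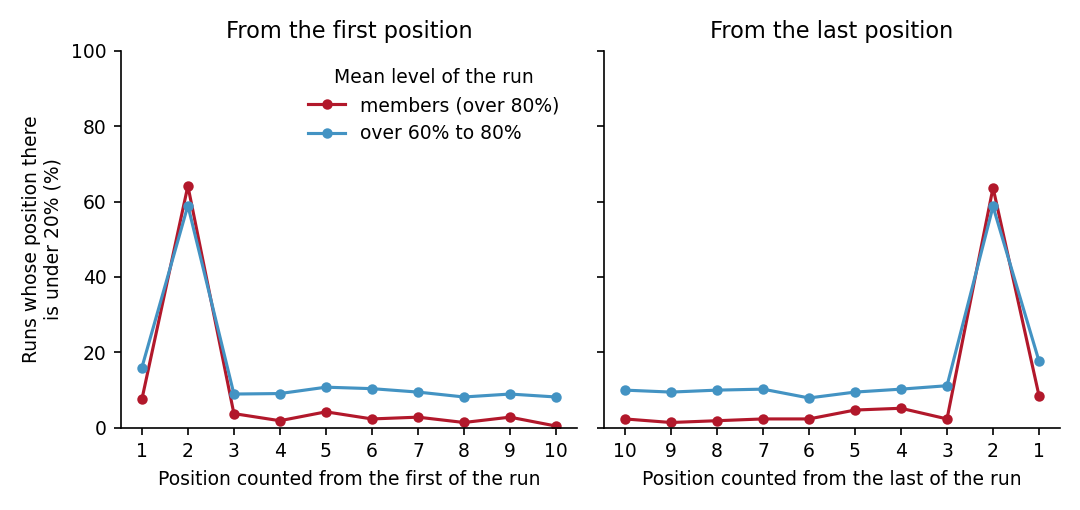
Share of runs (y axis, %) whose mean at a given position is under 20%, by place counted from the first position (left panel) and from the last (right panel). In members, in red, the share is 64.15% at the second place from the start and 63.68% at the second from the end, and the 770 runs over 60% and up to 80%, in blue, peak at the same places.

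Every animal showed this pattern. Averaged over the 317 pairs at run ends, the outer position stood at 86.3% to 92.8% (median 90.15%) and the inner position at 13.0% to 18.3% (median 14.7%). The difference, 69.6 to 78.8 points, had the same sign in 23 of 23 animals. Positions away from these pairs averaged 87.5% to 89.8%. The highest of the 23 inner means was thus far below the lowest outer mean, though at single pairs an animal could be alike at both positions. Pairs inside the runs were mostly alike, with a median difference of 1.69 points, and 198 of 2317 (8.55%) differed by more than 20 points. The pattern is not particular to the members. In runs over 60% and up to 80%, the outer and inner positions had medians over animals of 78.6% and 11.3%. The inner position was under 20% while the outer was over 80% at 244 of 474 starts and 245 of 466 ends. In runs at 20% or less, the outer positions had a median over animals of 4.67% and the inner ones of 1.78%. Per the labels' protocols, DNA was cut with MspI and the fragment ends were then repaired. The part of that step in the low end positions was not tested, and the file does not say how strands were handled.

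The run with the most positions that opens the list, in 13q33.3 on chromosome 13 from 107145448 to 107145787, shows how such a mixture looks. Its 49 positions gave a mean of 86.79% ± 2.65 (SD, n = 23), with right 12 lowest at 78.8%, a median of 87.5% and right 11 highest at 90%. Its first position averaged 93.14% and the next, 1 bp on, 40.86%, with values from 0 to 100%. At 14 bp from the start 1 position averaged 0.3636% and never exceeded 5%. A pair at 184 and 185 bp averaged 51.3% and 16.04%, and the position at 302 bp averaged 12.09%. All others averaged 84.5% or more.

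**Figure D3:**
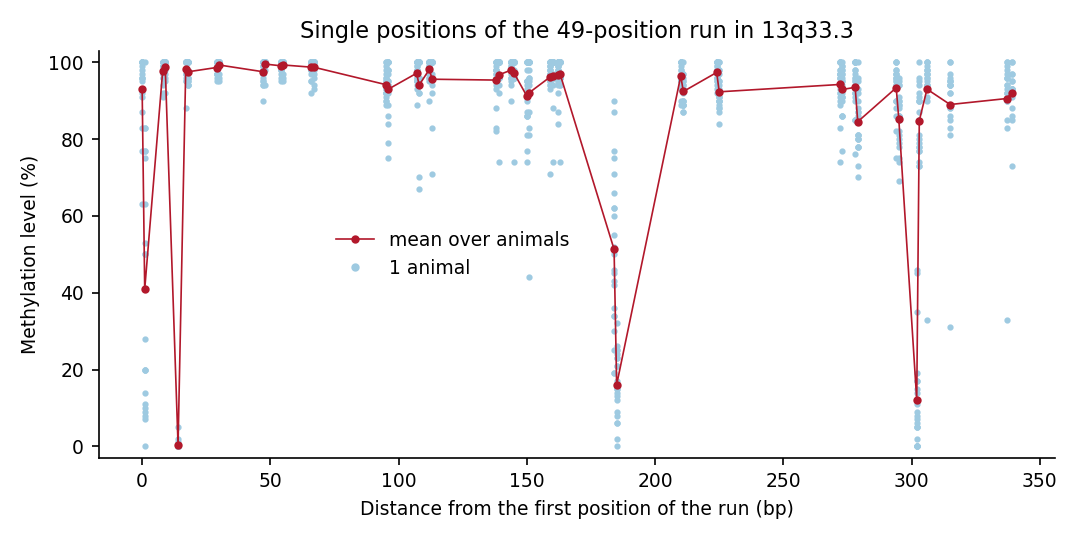
Methylation level (y axis, %) at each of the 49 positions of the run in 13q33.3 by distance from its first position (x axis, bp), with 1 point per animal and the mean over animals joined by a line. The mean falls to 0.3636% at 14 bp, 16.04% at 185 bp and 12.09% at 302 bp, while most positions stay above 90%.

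The end positions also weigh on membership. With the 2 outer positions at each end left out, 349 runs had a mean above 80%. All 212 members were among them, with a median of 88.9%, and 136 of the 415 runs between 70% and 80% joined them. With neighbouring positions 1 bp apart merged before counting, 68 runs qualified, since fewer runs then reach 20 positions.

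Some positions were low in part of the animals and high in others. Without right 9 and left 3, 2 libraries described below, 94 positions in 63 members were at 20% or less in at least 1 animal and at 80% or more in at least 1 other. At 44 of them a single animal was low, and at 50 more than 1. Of the latter 50, 38 had a partner 1 bp away. The partner was low in the same animals at 8 positions, in some of them at 5 and in none at 25. A partner without a value counted as not low. Some of the 50 were inner positions of the pairs at run ends described above. At 1 of these, 1978938 in 19p13.3, 13 animals were low, 7 lay between and only 1 was high. In 7p12.1, at 50850216 and 50850217 on chromosome 7, the same 6 animals stood between 0 and 13% at both positions. These were left 5, left 6, left 9, right 6, right 8 and right 12. All other animals with values stood between 67% and 100%, so levels split with nothing between 13% and 67%. In 19p13.2 at 7620508, 7 animals were at 0, with left 3 and right 9 counted among them. Another 9 lay between 82% and 100%, and right 7, left 5 and right 11 stood at 46%, 56% and 79%. Its partner at 7620509 stood at 0 to 8% in 3 of the animals at 0 and at 50% and 32% in left 9 and left 11. In 16p13.3 the position 4933724 was at 0 in all 21 animals with a value and its partner averaged 1.316%. Whether these positions are CpGs in each monkey was not tested.

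Across animals the members were held at a common level. The mean over members was 84.6% ± 0.717 (SD, n = 23), from 83.5% in right 9 through a median of 84.4% to 87.0% in left 3. The left hemisphere gave 84.73% (SD 0.850, n = 11), the right one 84.5% (SD 0.586, n = 12), and their ranges overlapped. Both extremes were libraries with many missing values. At the member positions left 3 had no value in 59.4% and right 9 in 37.8%, where the median animal lacked 1.73%. In right 9, 74.3% of the values were exactly 0 or 100%, in left 3 58.3%, and in the others 15.7% to 43.9%. When each value was centred on the mean of its position, left 3 stood at 85.1% and right 9 at 83.6%, inside the range of the others (83.3% to 85.4%). Without both libraries the plain mean was 84.5% ± 0.461 (SD, n = 21).

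Values were missing more often, on average, in members than in runs at 20% or less. In members 7.93% of positions lacked a value in an animal, against 4.31%, a difference of 3.62 ± 7.82 points (SD, n = 23; 2-sided sign-flip permutation test with 100000 resamples, p = 0.0141). It was higher in members in 13 of 23 animals, and the median difference was 0.155 points. Without right 9 and left 3 the difference was 1.47 points (p = 0.0552, permutation, n = 21). Within monkeys whose identifiers start with r it was 5.93 points (p = 0.0519, permutation, n = 12) and within those starting with B 1.10 points (p = 0.273, permutation, n = 11). Without these 2 libraries, and within either series of identifiers, the difference did not pass at 0.05.

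**Figure D4:**
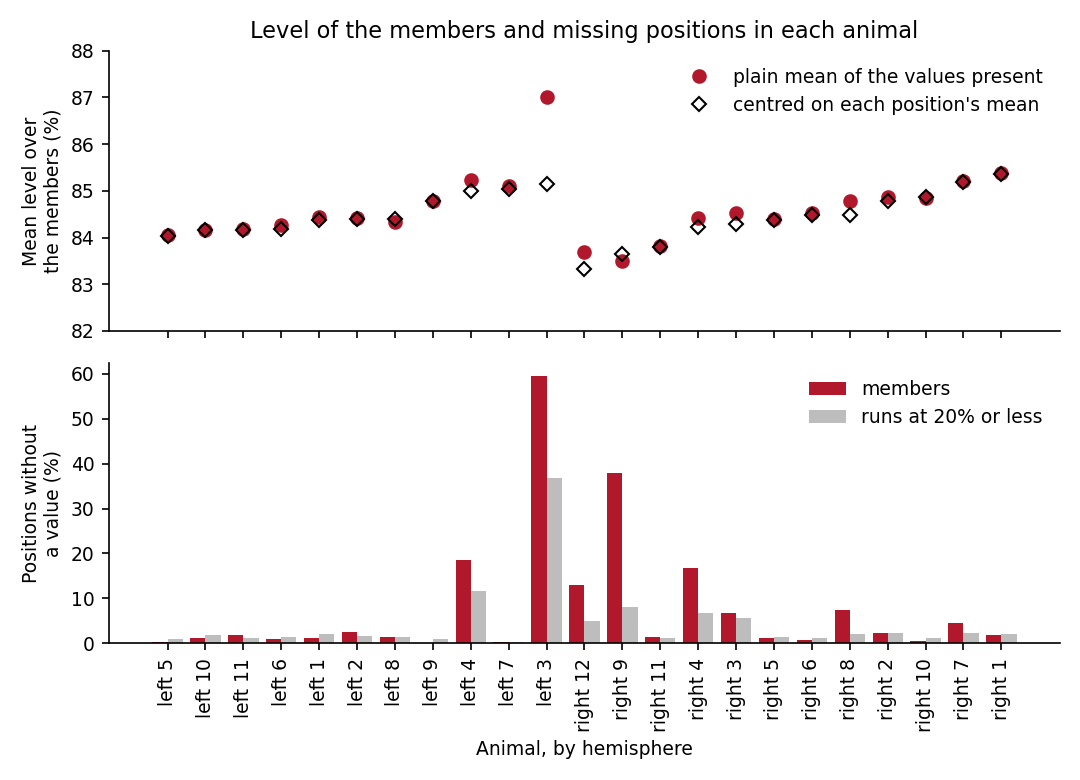
Upper panel: mean methylation level over the members in each animal (y axis, %, starting at 82), as a plain mean (filled) and centred on each position's mean (open). Lower panel: positions without a value (%) in members and in runs at 20% or less. Animals are ordered by hemisphere and level, and left 3, at 87.0% plain and 85.1% centred, lacks 59.4% of the member positions.

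The spread over animals within a run was small for most members. The SD ran from 0.364 to 12.8 points with a median of 2.69, or 2.20 without right 9 and left 3. Runs at 20% or less had a median of 0.771 and runs over 60% and up to 80% one of 3.99. The narrowest member, in 7p13 on chromosome 7 from 44153226 to 44153355, ran only from 79.6% through 80.4% to 81.3% over 23 animals. In 6q25.3, on chromosome 6 from 158093863 to 158093973, levels ran from 81.6% to 83.5% (median 82.7%). In both, 4 positions were low and the median position stood above 97%.

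The 3 widest spreads came from 1 library. In 19p13.11, on chromosome 19 from 17412026 to 17412417, right 9 stood at 23.1% from 13 of 38 positions. The other 22 animals lay between 80% and 86.6% (median over all 84.5%). In 19p13.3, from 422217 to 422352, right 9 stood at 30.8% from 13 of 26 positions and the others between 78.5% and 90.6%. In 8p21.2, on chromosome 8 from 23428728 to 23429211, it stood at 33.8% from 21 of 49 positions and the others between 81.1% and 89.1%. The SDs of 12.8, 11.7 and 11.1 points fell to 1.47, 2.66 and 2.21 without right 9 and left 3. Right 9 was the lowest animal in 33 members and the highest in 42 of the 178 where it had a value, and left 3 the highest in 55 of 162. A range of 20 points or more was found in 41 members, and in 14 without these 2 libraries. Without them the largest range of a member was still 41.03 points and the largest SD 9.911 points. In 19p13.3, from 1978937 to 1979221, left 3 stood at 100% from 2 of 48 positions while the other animals kept to 92.7% to 94.7%. The part of depth in these values was not tested, since the file gives no coverage.

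The comparison at the centre of the design asked whether levels follow the anxious temperament score, with age in the model. In 191 of the 212 members the range over animals reached the 5 points needed for the test. The fit by limma covered all 21253 eligible runs of the series. No member was called at an adjusted p under 0.05, as for all runs (0 called, 0%). An unadjusted p under 0.05 was reached by 1 member (0.524%), against 3.2% of all runs. That member was lower with rising score, as were 1.78% of all runs at that p, while 1.42% were higher. Slopes ran from -2.79 to 2.68 points per score unit, 89 up and 102 down, with a median of -0.07 against -0.01 over all runs. The median SE was 0.877 points per score unit. With no range filter all 212 members were tested, 0 were called and 1 (0.472%) had an unadjusted p under 0.05. Among all runs it was 725 of 27604, with 0 called.

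The member with the smallest p for the score lies in 1p32.3 on chromosome 1 from 54723712 to 54723815. Levels ran from 73.6% in right 10 through a median of 80.7% to 96.9% in right 2, the animal with the second lowest score. The lowest animals, right 10 and left 11, had scores of -0.09 and 1.43 and right 2 one of -1.05. Levels changed by -2.79 points per unit of score (SE 1.33, n = 21) with a limma p of 0.0482 and an adjusted p of 1. Right 2 had values at 8 of the 20 positions, and without it the slope was -1.54 with an SE of 1.19 (limma p = 0.209). Over the alternatives its adjusted p was 1 throughout. In 20q13.2, from 50140350, levels ran from 72.9% in right 4, the animal with the lowest score, through 84.5% to 89.0%. The slope there was 1.67 (SE 0.925, n = 22, adjusted p of 1 by limma), and 0.13 once right 4 was left out. Slopes were 1.46 in 6p22.1 (from 30309578), -1.28 in 19p13.11 (from 16636038) and -1.46 in 6q25.3 (from 159924751). With values centred on each position's mean, the first was 0.40 and the second -0.53. The slope in 6q25.3 was -0.50 without left 11, the lowest animal there at 77.2%.

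Age was the covariate. No member was called, against 12 runs of 21253 (0.0565%). An unadjusted p under 0.05 was reached by 5 members (2.62%) against 4.81% of all runs, 4 of them lower with age and 1 higher. Over all runs, 1.1% were lower with age and 3.71% higher at that p. Slopes ran from -8.81 to 9.27 points per year with a median SE of 2.95. Their median was 0.20 points per year against 1.06 over all runs.

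The strongest age slope by p lies in 6q21 on chromosome 6 from 107390028 to 107390363. Left 1, the oldest at 2.13 years, was lowest at 77.1%, the median was 83.7%, and left 3 was highest at 89.9% from 16 of 39 positions. The next lowest was right 3, aged 1.55 years, at 79.5%, and the youngest animals, left 5 and right 11, stood at 84.4% and 84.2%. Per year the level changed by -8.01 points (SE 2.03, n = 23) with a limma p of 0.000681 and an adjusted p of 0.294. Leaving out left 1 gave -8.01 (SE 3.42) and an adjusted p of 1. Without right 9 and left 3 the limma adjusted p was 0.0854, the smallest over 35 alternatives, and the largest was 1. In 19p13.3, from 1081832 to 1081973, left 1 stood alone at 77.8% and all others lay between 83.4% and 87.5% (median 84.8%). The change per year was -5.71 points (SE 1.71, n = 23) with an adjusted p of 0.604 by limma, and without left 1 the run no longer had the range needed for a test. In 7q22.1, from 101892199, left 4 was lowest at 85.2% and left 1 next at 88.1% (slope -5.15, SE 2.23, adjusted p of 0.999 by limma).

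Right and left hemispheres were compared with score and age in the model. No member was called, as for all runs (0 called, 0%). An unadjusted p under 0.05 was reached by 4 members (2.09%) against 3.12% of all runs. Of the 4, 3 were higher and 1 lower in right samples, and of all runs 1.81% were higher and 1.31% lower. The differences, right minus left, ran from -5.09 to 4.03 points with a median SE of 1.28. The leading run, in 5p15.33 on chromosome 5 from 1293590 to 1293929, stood at 86.95% in left samples (SD 2.32, n = 11) and at 82.02% in right ones (SD 5.18, n = 12). Left samples ran from 81.7% through 86.9% to 89.8% and right samples from 74.2% through 84.0% to 88.4%. The 5 lowest animals were all right samples, and the other 7 right samples overlapped the left ones. Right minus left came to -4.56 points (SE 1.64) with a limma p of 0.0111 and an adjusted p of 0.975. In 19p13.2, from 10602517, right samples were 3.06 points above left ones (SE 1.14, adjusted p of 0.975 by limma). Left samples lay between 86.6% and 89.0%, and 7 of 11 right samples lay in the same range. The other 4, right 1, right 11, right 12 and right 8, stood at 93.0% to 97.5% with values at 17, 18, 16 and 8 of the 20 positions. Centred on each position's mean, all animals there lay within 2.74 points, under the range needed for a test. In 22q13.1, from 38690407, the left mean was 83.2% (SD 2.22, n = 11), the right mean 85.5% (SD 1.73, n = 12), and the fitted gap 2.34 points (SE 0.977) with an adjusted p of 0.975 by limma. Over the alternatives, adjusted p for these 3 runs ran from 0.935 to 0.995.

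**Figure D5:**
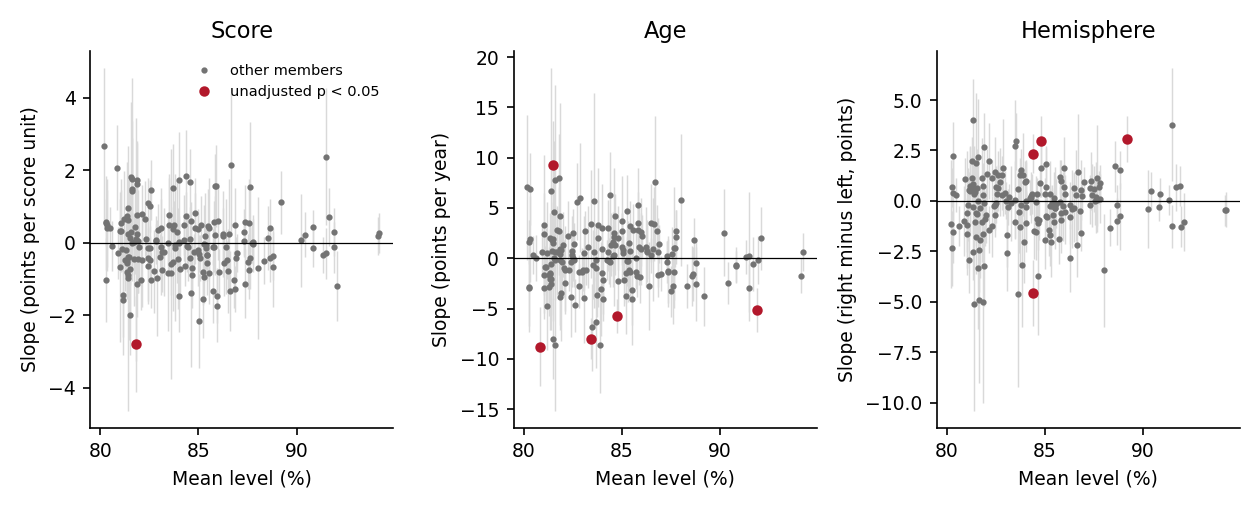
Slope of each of the 191 tested members (y axis, with 1 SE) on the score (points per score unit), on age (points per year) and between hemispheres (right minus left, points), by mean level (x axis, %). Red points have an unadjusted p under 0.05: 1 for the score, 5 for age and 4 for hemisphere, and 0 have an adjusted p under 0.05.

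Single positions inside the members were fitted with all 192151 eligible positions of the series, of which 3926 lay in members. None was called for the score (0% of all) or for hemisphere (0% of all). At an unadjusted p under 0.05 stood 157 member positions (4%) for the score, against 3.12% of all positions. Among positions over 80% outside the members the share was 4.81%, above that of the members. Of the 157, 81 were higher and 76 lower with the score, against 1.49% and 1.63% of all positions. For hemisphere the count was 142 (3.62%), against 3.48% of all positions and 4.05% of those over 80% outside the members. The smallest p for the score was at 40997089 in 17q21.31, with levels from 75% in right 4 through 96% to 100% and a change of 4.72 points per unit (SE 1.23, n = 21, adjusted p of 1 by limma). Next were 24372925 in 16p12.1 and 7813890 in 17p13.1, with slopes of 4.51 and 5.78, where right 4 was also at or among the lowest (83% and 71%). For hemisphere, 15285101 in 19p13.12 was 25.82 points higher in right samples (SE 5.87, n = 22, adjusted p of 0.93 by limma). Left samples there lay between 24% and 73% and right samples between 30% and 90%. Differences of 7.76 and -21.27 points followed at 236192909 in 1q42.3 and 16636226 in 19p13.11.

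For age 1 member position was called, against 102 of all positions (0.0531%). It lies in the widely spread 7p22.1 run, at 4917519. Left 1 stood at 38%, right 6 at 70%, and all other animals with a value between 83% and 100% (median over all 91%). The change per year was -48.29 points (SE 8.88, n = 20) with an adjusted p of 0.0415 by limma. Left 1 alone was that low. Without left 1, and likewise without right 9 and left 3, fewer than 20 values remained there and the position was not tested. On the arcsine scale no member position was called. The next 2 positions, 13365235 in 6p24.1 and 39805640 in 19q13.2, also had left 1 lowest, at 80% and 71%, with limma adjusted p of 0.0747 and 0.109.

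Member positions with an unadjusted p under 0.05 for age numbered 186 (4.74%), against 4.06% of all positions. Of these, 153 (3.9% of those tested) were lower with age and 33 (0.841%) higher. Over all positions the order was opposite, 1.33% lower and 2.73% higher. Positions over 80% outside the members resembled the members, with 2.27% lower and 0.732% higher. Without left 1 the member counts were 71 lower (2.14%) and 54 higher (1.63%) among 3312 positions tested. That set was smaller since positions with fewer than 20 values dropped out. All positions then gave 1.07% lower and 2.22% higher, and positions over 80% outside the members 1.77% and 1.82%. For hemisphere, 98 member positions (2.5%) were higher and 44 (1.12%) lower in right samples at that p, against 1.89% and 1.59% of all positions. Positions over 80% outside the members again gave a like split, 2.79% and 1.26%. Without right 9 and left 3 the member counts were 78 higher (2.2%) and 58 lower (1.63%), near the 2.18% and 1.69% of all positions.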

How the data were processed

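The authors deposited 1 table of methylation levels, a fraction from 0 to 1 with 2 decimals, at 444312 positions in 23 libraries. Per the submitters' processing notes, Bismark 0.11.1 and hg19 were used. No source used here states coverage, filters or strand handling, so depth is unknown and no interval was computed. Placing macaque reads on a human build can lose or misread sites that differ between the species.

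Fractions were multiplied by 100. Levels of runs of at least 3 positions, with values in 20 animals and a range of at least 5 points, and of single positions ranging over at least 10 points, were fitted with limma 3.58.1 (R 4.3.3; empirical Bayes with trend) on score and age. Hemisphere was tested with both in the model. Missing values were left out, and Benjamini-Hochberg adjustment ran over everything tested. The fit was also run on simulated data. No outcome of that run is given here, so it is no measure of how well the fit finds changes at the members' levels. Each animal is 1 sample, and p-values measure the spread between animals.

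Members and lists were chosen with earlier results of these data known. Runs and positions named are those with the most positions, extreme means, spreads or spans, the nearest to 80%, and the smallest p for each term, and those of close pairs. Bands came from circlize 0.4.16. Alternatives were other scales, filters, covariates, run definitions and left-out animals.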

Additional observations from a re-analysis of the deposited data

How the results depend on the processing

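No paired analysis was possible because left and right samples come from different monkeys and their numbers only name them. A higher coverage minimum was not run, since the file holds no coverage. Alternatives that drop low or outer positions were chosen after seeing the data. No member run was called for score, age or hemisphere under any of the alternatives run. The number of members was 139 with values in all 23 animals, 390 above 75%, 17 above 90%, 68 with neighbouring positions counted once, 662 without positions under 20% and 349 without the 2 outer positions at each end. Leaving out positions under 20% raises a run's mean by construction. Run size was still taken from the full run there, and no minimum was set for the positions that remained. The mean level was 81.33% above 75%, 91.54% above 90%, 86.88% at positions that every animal has, 87.98% without positions under 20% and 86.75% without outer positions. At positions that every animal has, 203 runs qualified, and only 110 of them were among the 212. The median SD was 1.549 above 90%. With narrower and wider gaps allowed between positions there were 221 and 207 members, and without right 9 and left 3 there were 211, 207 of them shared with the 212.

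Among all runs of the series, calls for age numbered 7 on the arcsine scale, 1 with the 50% rule, 3 with the identifier series, 4 without right 9 and left 3 and 6 with hemisphere as a covariate. With single animals left out they ran from 0, without left 1, to 16, without right 2. Among all positions, calls for age numbered 3 on the arcsine scale, 266 with no range filter, 66 without right 9 and left 3 and 0 without left 1. The count of member positions called for age, 1 in the report, was 0 on the arcsine scale, and 0 without right 9 and left 3 or without left 1, where that position had fewer than 20 values and was not tested. For the score 1 position was called on the arcsine scale, and for hemisphere 1 with no range filter, neither in a member. Member runs with an unadjusted p under 0.05 ran from 0 to 5 for score (5 without right 4 and 5 without right 12), 3 to 7 for age and 3 to 7 for hemisphere (7 without right 5 or left 9). For age there were 3 on the logit and arcsine scales, with a range of at least 10 points, and without left 1 or right 3. There were 7 with centred values, with the 50% rule, without right 9, and without right 9 and left 3. Over all runs the score counts were 508 of 19484 without right 4 and 585 of 19566 without right 12. For age they were 584 of 18823 without left 1 and 706 of 18933 without right 3. They were 798 and 895 of 21253 on the logit and arcsine scales, and 884 of 17676 with the 10-point range. Centred values gave 1167 of 21030 and the 50% rule 1063 of 19082. There were 1091 of 18969 without right 9, and 1244 of 17693 without right 9 and left 3. For hemisphere they were 673 of 18849 without right 5 and 584 of 18815 without left 9. The cause of the shifts between settings was not tested.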

Other observations

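On the X chromosome 186 runs had the size of the members and values in enough animals. Of these, 4 (2.15%) lay above 80%, against 4.38% of the autosomal runs. Another 148 lay at 20% or less, and 34 (18.3%) lay between, against 26.9% on the autosomes. These shares were not tested.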
